A study of Mus musculus with 29 samples.

Results

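The 8 genes described here, Reln, Trp73, Lhx1, Lhx5, Calb2, Nhlh2, Ndnf and Cacna2d2, are genes known from Cajal-Retzius cells of the embryonic cortex. They were taken as a list of names. All 8 were found among the 38355 genes listed in the untreated tables and the 48709 genes listed in the treated tables, and all 8 passed the filter on low counts in both. Their levels were measured by RNA-seq in 19 libraries of E17.5 mouse pallium (C57BL/6J, E for embryonic day), and H3K27me3, the trimethyl mark of Polycomb-silenced chromatin, was measured at the same genes by ChIP-seq in 8 libraries.

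The study deleted Smarcc1 and Smarcc2, which encode the BAF155 and BAF170 scaffold subunits of the BAF chromatin remodelling complexes, with hGFAP-Cre. This Cre line recombines in late pallial progenitors, first in the medial pallium and later in the dorsal and lateral pallium, so a cell that was born before recombination keeps both genes. The untreated experiment held 4 control libraries (C), which the study's methods describe as littermates with Cre and 1 floxed copy of each gene, and 3 double knockout libraries (M, numbered 2, 3 and 4). The treated experiment held 4 wild type libraries (WT vehicle), 4 double knockout libraries from dams given vehicle (dcKO vehicle) and 4 double knockout libraries from dams injected daily with ICG-001, an inhibitor of Wnt signalling through β-catenin and CBP (dcKO Wnt inhibitor). No wild type group received the inhibitor. The H3K27me3 experiment held 4 C and 4 double knockout (K) libraries. The deposited genotype label of the C libraries of both untreated experiments also reads as knockout, so C, M and K were read from the sample titles.

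Cajal-Retzius cells are among the first neurons of the cortex. They arise mainly at the borders of the pallium, at the cortical hem, the septum and the ventral pallium, and migrate under the pial surface into the marginal zone. There they secrete reelin, the glycoprotein that Reln encodes, which binds VLDLR and APOER2 (encoded by Lrp8) on migrating neurons and leads to phosphorylation of the adaptor DAB1, and this signal directs the inside-out layering of the cortex. The p53 family member p73 (Trp73) marks the Cajal-Retzius cells of hem and septum. Lhx1 and Lhx5 are LIM-homeodomain transcription factors, Nhlh2 is a basic helix-loop-helix transcription factor, Calb2 encodes the calcium-binding protein calretinin, Ndnf encodes a secreted neurotrophic factor, and Cacna2d2 encodes an α2δ subunit of voltage-gated calcium channels. Several of them are also made by other cells of the late embryonic cortex, among them GABAergic interneurons, which make Reln and Calb2. In bulk tissue, fewer cells of a type and less RNA per cell cannot be told apart.

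The libraries held between 11946658 and 28391046 counts assigned to genes. The deleted genes went against the label in some libraries. Smarcc1 lay between 245 and 299 CPM, counts scaled to the library's TMM-adjusted size, in the 8 C and WT vehicle libraries, at 128 and 135 CPM in M replicates 3 and 4, and between 133 and 138 CPM in dcKO vehicle replicates 1, 3 and 4. The library labelled M replicate 2 held 245 CPM of Smarcc1, the library labelled dcKO vehicle replicate 2 held 242 CPM, and the libraries labelled dcKO Wnt inhibitor replicates 1 to 4 held 214, 252, 139.8 and 173 CPM. Smarcc2 differed from the label likewise, with 669.9 CPM in M replicate 2 against 399 and 398 CPM in replicates 3 and 4. In dcKO Wnt inhibitor replicates 1 to 4 it held 644, 695, 416 and 586 CPM. It held 439, 425 and 435 CPM in dcKO vehicle replicates 1, 3 and 4, and 664 to 834 CPM in WT vehicle. For both genes dcKO Wnt inhibitor replicates 1 and 4 lay between these dcKO vehicle libraries and WT vehicle. A cut at 200 CPM of Smarcc1 divides them, with replicate 1 (214 CPM) above it and replicate 4 (173 CPM) below. The tests of the members and of the gene lists were therefore also run without M replicate 2, or without dcKO vehicle replicate 2 and dcKO Wnt inhibitor replicates 1 and 2, a choice made after seeing the data. Libraries with the same number in the untreated and treated experiments were alike: over 16156 genes, the deviation from the group mean correlated at r = 0.20 to 0.50 between same-numbered C and WT vehicle libraries and at r = 0.51 to 0.73 between same-numbered M and dcKO vehicle libraries, each the highest r of its library. The other pairs reached at most r = 0.13 and r = 0.18. The labels do not say that samples were shared, and the counts differed by more than counting error, but the 2 experiments were not treated as independent evidence.

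The members differed widely in level. As RPKM, which divides CPM by the exon length in kb and so allows different genes to be compared, Reln was the highest in the C libraries at 23.5 (21.9 to 24.9, n = 4). Calb2 followed at 17.2 (14.3 to 19.4), then Cacna2d2 at 9.12 (7.49 to 10). Nhlh2 at 6.03 (5.30 to 6.57) and Trp73 at 4.88 (4.24 to 5.34) were neighbours whose ranges overlapped. Ndnf lay at 3.5 (2.92 to 4.02), and the LIM-homeodomain genes were lowest, Lhx5 at 1.72 (1.33 to 1.88) and Lhx1 at 1.03 (0.866 to 1.22). In the WT vehicle libraries the order was the same for the 3 highest and the 2 lowest genes, though there the ranges of Reln (20.4 to 24.2 RPKM) and Calb2 (14.2 to 21.5 RPKM) overlapped, and Ndnf stood at 6.07 RPKM (4.48 to 6.95) beside Trp73 at 5.75 (5.31 to 6.45) and Nhlh2 at 5.54 (3.77 to 7.18). Counts per library ranged from 4474 to 15327 for Reln but only from 45 to 167 for Lhx1 and from 47 to 179 for Lhx5, so the LIM-homeodomain genes carried the largest counting error.

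**Figure D1:**
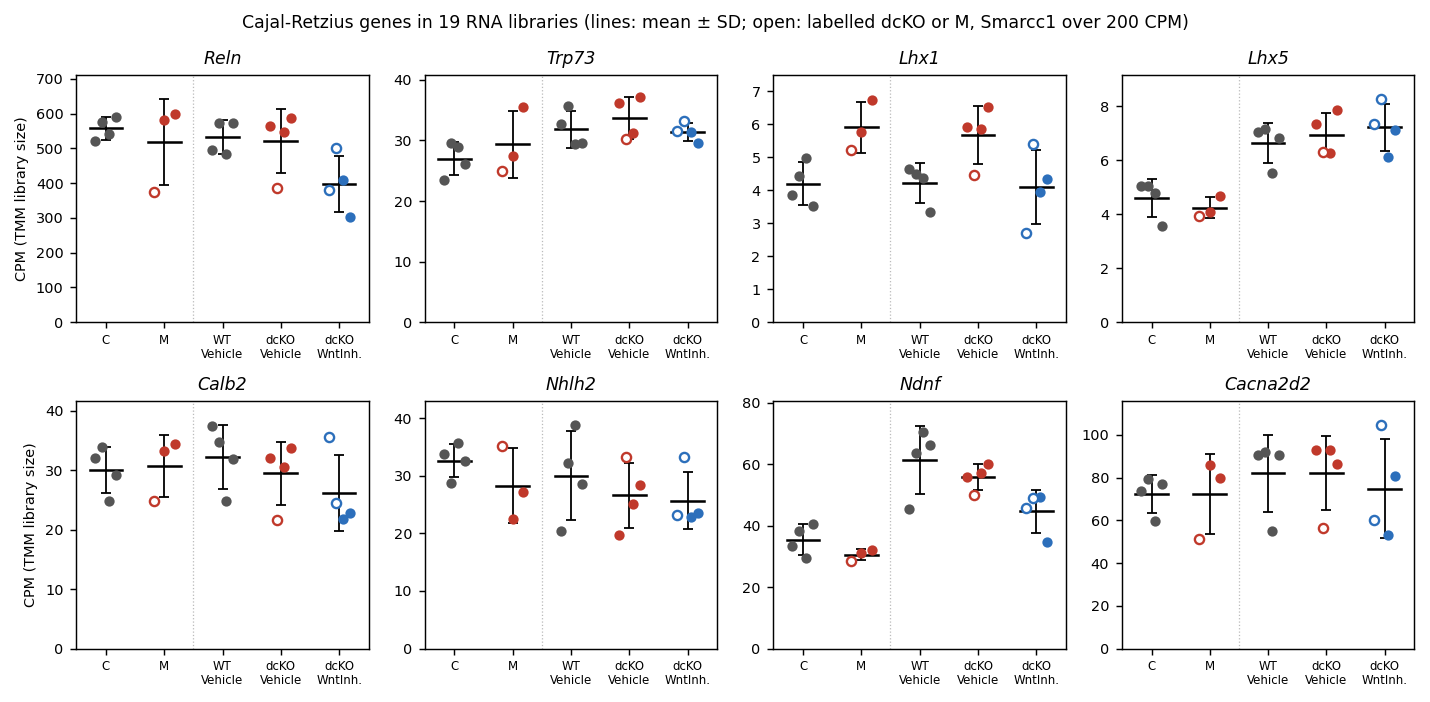
Levels of the 8 Cajal-Retzius genes in the 19 RNA libraries, in CPM on a vertical axis of its own for each gene, with the 5 groups along the horizontal axis. Points are libraries (open where a library labelled dcKO or M held over 200 CPM of Smarcc1), bars are the mean ± SD, and a dotted line divides the untreated from the treated experiment; Lhx1 in M lies above C without overlap, and Ndnf in dcKO Wnt inhibitor lies below dcKO vehicle without overlap.

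The first comparison asked whether deletion of the BAF scaffolds altered these genes in late cortical development. Reln held 520.2, 577, 542 and 590.3 CPM in C and 376, 580.5 and 599 CPM in M replicates 2, 3 and 4. Replicate 2 lay below all C libraries and the other two M libraries lay within or just above the C range. The log2 fold change was -0.10 (95% interval -0.44 to 0.23, SE 0.15), and edgeR's quasi-likelihood test gave an adjusted p of 0.778. Trp73, which held 23.4, 29.6, 28.9 and 26.2 CPM in C and 25, 27.5 and 35.6 CPM in M, also had overlapping groups and a log2 fold change of 0.13 (adjusted p = 0.680 in edgeR).

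Lhx1, a transcription factor gene of early-born neurons, was the member whose groups did not overlap. It held 3.87, 4.43, 4.98 and 3.52 CPM in C and 5.20, 5.76 and 6.75 CPM in M, so that all 3 M libraries, including replicate 2, lay above all C libraries. Its log2 fold change was 0.50 (SE 0.17, 95% interval 0.13 to 0.87), with an adjusted p of 0.203 in edgeR across 15770 genes, which missed the threshold of 0.05. Lhx5, the paralogous factor, did not share this pattern, with 5.04, 5.05, 4.80 and 3.57 CPM in C and 3.95, 4.09 and 4.69 CPM in M and a log2 fold change of -0.12.

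The remaining members overlapped between C and M. Nhlh2 held 33.7, 28.7, 35.6 and 32.5 CPM in C and 35.3, 22.5 and 27.1 CPM in M. Replicate 2 was thus among the highest libraries for Nhlh2, and replicates 3 and 4 were below all C libraries. Ndnf held 33.4, 38.2, 29.6 and 40.6 CPM in C and 28.6, 31.1 and 32.0 CPM in M, with a log2 fold change of -0.21 and an adjusted p of 0.397 in edgeR. Calb2 averaged 30.0 ± 3.91 CPM in C (SD, n = 4) and 30.8 ± 5.23 CPM in M (SD, n = 3), and Cacna2d2 averaged 72.5 ± 8.97 and 72.3 ± 18.6 CPM, differences smaller than either group's spread.

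None of the 8 members passed an adjusted p of 0.05 between M and C in edgeR's test, where 1 of all 15770 genes did (0.00634%), and DESeq2 called 0 of 8 as well. At an unadjusted p below 0.05, 1 of 8 members was higher and 0 were lower, beside 7.91% and 8.14% of all genes. Of the 8, 1 had groups that did not overlap, beside 13.2% of all genes. The median log2 fold change of the members was -0.05, and that of all genes was 0.00. Without M replicate 2, when 1994 of 16024 genes passed (12.4%, with 5.57% higher and 6.88% lower), 1 of 8 members passed. Nhlh2 was lower in M (log2 fold change -0.40, SE 0.11, edgeR adjusted p = 0.040), while Lhx1 stood at 0.57 (SE 0.17, edgeR adjusted p = 0.056) and Reln at 0.08.

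The treated experiment repeated the genotype comparison under vehicle, against wild type controls. Lhx1 held 4.65, 4.5, 4.38 and 3.33 CPM in WT vehicle and 5.91, 4.45, 5.84 and 6.53 CPM in dcKO vehicle, where replicate 2, the library with Smarcc1 at the control level, alone fell into the WT range. Its log2 fold change was 0.43 (SE 0.21, 95% interval -0.01 to 0.88) with an adjusted p of 0.534 in edgeR. Reln held 496, 574, 485 and 573 CPM in WT vehicle and 565, 386, 547 and 588 CPM in dcKO vehicle. Again replicate 2 was lowest, and the groups otherwise covered the same range (log2 fold change -0.03, 95% interval -0.37 to 0.31). Trp73 held 32.7, 35.7, 29.4 and 29.5 CPM in WT vehicle and 36.1, 30.3, 31.2 and 37.2 CPM in dcKO vehicle, with a log2 fold change of 0.08.

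Nhlh2 held 20.4, 32.2, 38.9 and 28.6 CPM in WT vehicle and 19.7, 33.2, 25.1 and 28.4 CPM in dcKO vehicle, a log2 fold change of -0.17 (edgeR adjusted p = 0.921) that ran from -0.32 to -0.03 with 1 library left out. The other members stood at -0.14 (Ndnf), -0.13 (Calb2), 0.00 (Cacna2d2) and 0.06 (Lhx5). None of the 8 passed an adjusted p of 0.05 in edgeR, beside 1 of 16372 genes (0.00611%), none did in DESeq2, and 0 of 8 had an unadjusted p below 0.05, beside 9.46% of all genes. No member had groups that did not overlap, beside 5.66% of all genes. Without the 3 doubted libraries Lhx1 stood at 0.53 (edgeR adjusted p = 0.075), Nhlh2 at -0.30 (edgeR adjusted p = 0.555) and Reln at 0.09, and again no member passed, beside 2.47% of genes higher and 3.34% lower. By direction at an unadjusted p below 0.05, all genes had 4.14% higher and 5.33% lower with every library. The difference between the genotype effects of the 2 experiments was at most 0.19 on the log2 scale for any member. An interaction test was not read, because it takes the same-numbered libraries of the experiments as separate samples: edgeR called 0 of 16156 genes, with 81 at an unadjusted p below 0.05, fewer than a test with the right spread gives by chance.

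M replicate 2 and dcKO vehicle replicate 2, a same-numbered pair not treated as independent, moved together in several members. Both were the lowest of their groups for Reln, Trp73, Lhx1, Ndnf, Calb2 (24.8 and 21.7 CPM) and Cacna2d2 (51.2 and 56.5 CPM). For Lhx5 M replicate 2 was the lowest of its group and dcKO vehicle replicate 2 was not. Both were the highest of their groups for Nhlh2 (35.3 and 33.2 CPM). The summed level of 13 markers of GABAergic interneurons was also lowest in these libraries, 701 and 713 CPM against 822 to 1200 CPM in all others, with all 13 markers detected in every library. None of the 13 passed over all libraries. Without the doubted libraries 5 were higher and 1 lower in M, beside 5.57% and 6.88% of all genes. In dcKO vehicle 3 were higher and 1 lower, beside 2.47% and 3.34% of all genes. The part of interneurons in the level of these members was not tested.

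**Figure D2:**
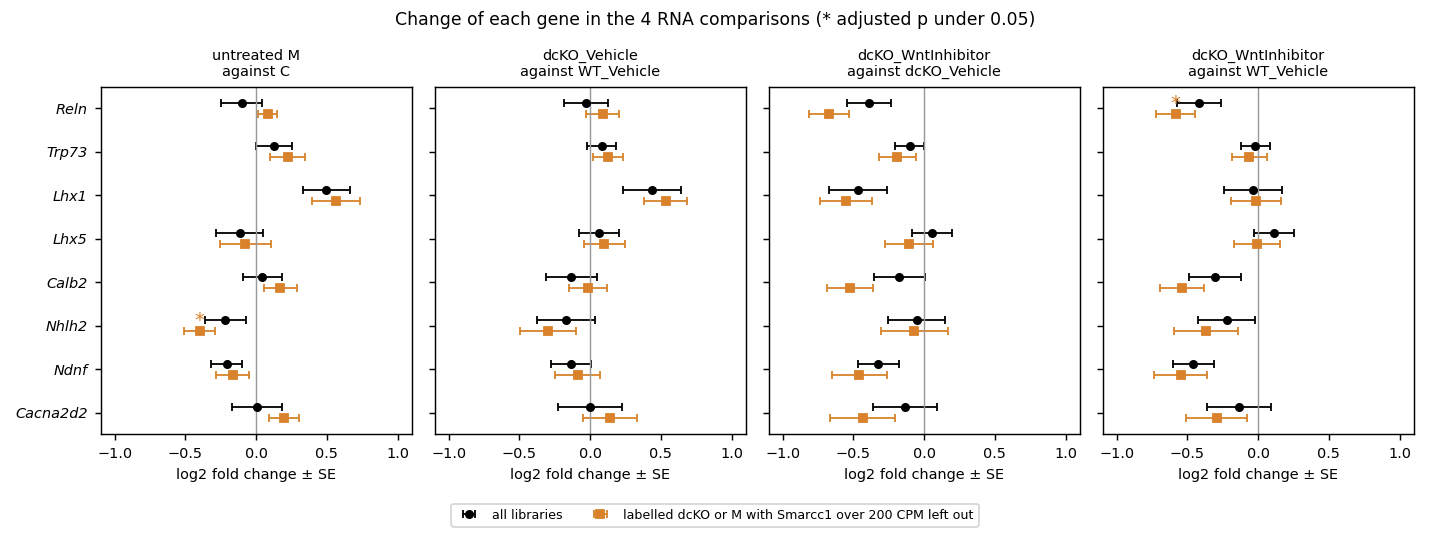
Log2 fold change (horizontal axis) of each Cajal-Retzius gene (rows) in the 4 RNA comparisons (panels), with bars for the standard error, over all libraries (black circles) and without those labelled dcKO or M with over 200 CPM of Smarcc1 (orange squares), where a star marks an adjusted p under 0.05. Lhx1 lies at 0.50 and 0.43 in the genotype comparisons and at -0.47 under the inhibitor, and the stars stand at Nhlh2 and Reln without the doubted libraries.

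The second question was how the knockout pallium differed when Wnt signalling was inhibited. Reln held 565, 386, 547 and 588 CPM in dcKO vehicle and 380.3, 499.6, 409 and 302 CPM in dcKO Wnt inhibitor. Of the vehicle libraries, 3 of 4 were above all inhibitor libraries and replicate 2 was not. The log2 fold change was -0.39 (SE 0.16), with an adjusted p of 0.265 in edgeR. Ndnf held 55.9, 50.01, 57.2 and 60.05 CPM in dcKO vehicle and 45.7, 48.8, 49.4 and 34.6 CPM in dcKO Wnt inhibitor, and was the member whose 2 groups did not overlap (log2 fold change -0.32, SE 0.14, edgeR adjusted p = 0.299). Lhx1 held 2.69, 5.4, 3.94 and 4.34 CPM in dcKO Wnt inhibitor, which overlapped the 4.45 to 6.53 CPM of dcKO vehicle (log2 fold change -0.47, SE 0.20, edgeR adjusted p = 0.290). These 3 members were the lower ones at an unadjusted p below 0.05, 3 of 8 beside 8% of all genes, and 0 of 8 were higher beside 7.85%.

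None of the 8 passed an adjusted p of 0.05 in edgeR between dcKO Wnt inhibitor and dcKO vehicle, where 9 of 16372 genes did (0.055%), and DESeq2 called none of them. Of the 8, 1 had groups that did not overlap, beside 8.51% of all genes. Calb2 (-0.18), Cacna2d2 (-0.14), Trp73 (-0.10), Nhlh2 (-0.05) and Lhx5 (0.05) differed by less on the log2 scale. Trp73 held 31.6, 33.1, 31.4 and 29.5 CPM in dcKO Wnt inhibitor, within the range of the vehicle groups. The members' median log2 fold change was -0.16, and that of all genes was 0.01. Without the 3 doubted libraries, which left 2 inhibitor libraries, Reln stood at -0.67 (SE 0.14, edgeR adjusted p = 0.055), and no member passed, beside 0.303% of genes higher and 0.72% lower.

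Against WT vehicle, with which the inhibitor group shares neither genotype nor treatment, Ndnf had the largest difference among the members. It held 45.3, 63.7, 70.3 and 66.2 CPM in WT vehicle, where replicate 1 alone overlapped the inhibitor libraries, and its log2 fold change was -0.46 (SE 0.14, edgeR adjusted p = 0.132). Reln followed at -0.42 (SE 0.16, edgeR adjusted p = 0.180), with 3 of the 4 inhibitor libraries below all WT vehicle libraries. The others stood at -0.31 (Calb2), -0.22 (Nhlh2), -0.14 (Cacna2d2), -0.04 (Lhx1), -0.02 (Trp73) and 0.11 (Lhx5).

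None of the 8 members passed an adjusted p of 0.05 against WT vehicle in edgeR, where 16 of 16372 genes did (0.0977%). DESeq2 called none either, with 0.062 for Ndnf as its smallest adjusted p. At an unadjusted p below 0.05, 2 of 8 members were lower and 0 higher, beside 10.2% and 9.53% of all genes, and the groups overlapped at all 8, beside 7.49% of genes where they did not. This comparison depended on single libraries. Without the 3 doubted libraries Reln passed (log2 fold change -0.58, SE 0.14, edgeR adjusted p = 0.031), 1 of 8 members lower and 0 higher, beside 4.72% and 2.66% of 16815 genes. That fit kept inhibitor replicates 3 and 4. Replicate 4, with the lowest Reln, held intermediate levels of Smarcc1 (173 CPM) and Smarcc2 (586 CPM). Without dcKO Wnt inhibitor replicate 2 alone Reln passed as well (log2 fold change -0.55, edgeR adjusted p = 0.044), beside 5.35% of genes lower, and without WT vehicle replicate 1 it was Ndnf that passed (edgeR adjusted p = 0.044), beside 0.517% of genes lower. The 3 comparisons of the treated experiment share groups, so their values are not independent of each other.

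RNA of choroid plexus also differed between libraries and was highest in dcKO Wnt inhibitor replicates 1 to 3. The summed level of 6 choroid plexus markers was 857, 165, 493 and 12 CPM in dcKO Wnt inhibitor replicates 1 to 4 and 6.95 to 11.3 CPM in dcKO vehicle. It was 6.78 to 132 CPM in WT vehicle, 7.44 to 135 CPM in C and 5.79 to 11.2 CPM in M, and none of the 6 markers was at 0 in any library. All 6 were higher in the inhibitor group at an unadjusted p below 0.05 in both comparisons, beside 7.85% of all genes against dcKO vehicle and 9.53% against WT vehicle, and the homeobox gene Otx2, from this list, was called against WT vehicle (log2 fold change 1.64, SE 0.26, edgeR adjusted p = 0.046). Without the doubted libraries Otx2 was called too (1.55, edgeR adjusted p = 0.0049), and 6 of the 6 against dcKO vehicle and 2 against WT vehicle were higher at an unadjusted p below 0.05. Of all 16815 genes, 1363 and 1832 were higher in the same way. In the same order of inhibitor libraries Reln held 380.3, 499.6, 409 and 302 CPM. The summed level of 10 meningeal fibroblast markers lay between 52.8 and 128 CPM over all libraries, and that of 6 pallial excitatory neuron markers between 1502 and 2801 CPM. The part of these cell types in the members' values was not tested.

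Among the receptor and adaptor genes of reelin, Lrp8 was the one that differed by genotype in both experiments where the doubted libraries were left out. Lrp8, which encodes the reelin receptor APOER2, held 535, 547, 544 and 541 CPM in C and 509, 356 and 351 CPM in M replicates 2, 3 and 4, so that all M libraries lay below C and replicate 2 lay closest to it. In the treated experiment it held 468, 502, 507 and 484 CPM in WT vehicle and 336, 481, 336 and 334 CPM in dcKO vehicle, where replicate 2 alone lay in the WT range. Over all libraries the log2 fold change was -0.42 in M (edgeR adjusted p = 0.165) and -0.40 in dcKO vehicle (edgeR adjusted p = 0.398), short of the threshold. Without the doubted libraries Lrp8 was lower by test in both, at -0.61 (SE 0.06, edgeR adjusted p = 0.00011) and -0.55 (SE 0.09, edgeR adjusted p = 0.0052), and also in dcKO Wnt inhibitor against WT vehicle (-0.62, edgeR adjusted p = 0.0091). Vldlr, the other receptor gene, stood at 0.02, 0.11 and -0.11 in the same 3 comparisons without the doubted libraries. Dab1, the adaptor gene, stood at -0.22 (edgeR adjusted p = 0.038), -0.21 (0.377) and -0.29 (0.182). These 3 genes were picked for their role after the values were known. Here and below, the 2 experiments, whose same-numbered libraries were alike, were not treated as independent evidence.

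Of the 15 genes of the reelin pathway list, all 15 were tested, and 0 passed an adjusted p of 0.05 in edgeR in any of the 4 comparisons over all libraries. At an unadjusted p below 0.05 the list had 1 higher and 2 lower genes in M against C, beside 7.91% and 8.14% of all genes, and 1 and 1 in dcKO vehicle against WT vehicle, beside 4.14% and 5.33%. It had 0 and 3 in dcKO Wnt inhibitor against dcKO vehicle, beside 7.85% and 8% of all genes, and 1 and 3 against WT vehicle, beside 9.53% and 10.2%. Without the doubted libraries, 1 passed higher and 3 lower in M against C, beside 5.57% and 6.88% of genes. The higher one was Cdk5r1 (log2 fold change 0.50), which encodes the CDK5 activator p35, and the lower ones were Lrp8, Itga3 (-0.49) and Dab1. In dcKO vehicle Cdk5r1 (0.47) was again higher and Lrp8 lower, beside 2.47% and 3.34% of genes, and in dcKO Wnt inhibitor against WT vehicle Lrp8 and the N-cadherin gene Cdh2 (-0.36) were lower, beside 4.72%. None of the list passed between dcKO Wnt inhibitor and dcKO vehicle.

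Some genes of other Cajal-Retzius transcription factors and of the hem showed the same dependence on these libraries. Ebf3 held 12.3, 12.9, 13.7 and 11 CPM in C and 10.9, 39 and 41.7 CPM in M replicates 2, 3 and 4. It held 7.72, 12.4, 12 and 9.8 CPM in WT vehicle, 29, 9.26, 33.9 and 35.9 CPM in dcKO vehicle and 7.42, 13.3, 21.1 and 17.1 CPM in dcKO Wnt inhibitor. Replicate 2 of M and of dcKO vehicle thus lay at the control level while the other libraries of both groups lay above all controls. Over all libraries Ebf3 did not pass (log2 fold change 1.31, edgeR adjusted p = 0.2 in M), and without the doubted libraries it was higher in M (1.69, SE 0.10) and in dcKO vehicle (1.66, SE 0.17), with edgeR adjusted p of 5.3e-06 and 0.00038.

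Among the 12 further genes of Cajal-Retzius cells or their sources, 0 passed in any comparison over all libraries. At an unadjusted p below 0.05 they had 2 higher and 0 lower in M against C, 2 and 0 in dcKO vehicle against WT vehicle, 2 and 4 in dcKO Wnt inhibitor against dcKO vehicle and 2 and 0 against WT vehicle, beside the shares of all genes given for the reelin list. Without the doubted libraries, Ebf2 (0.73), Ebf3 and Zic2 (0.69) were higher and Emx2 (-0.50) was lower in M, and Ebf1 (0.65), Ebf2 (0.74) and Ebf3 were higher in dcKO vehicle. Under the inhibitor, with 2 libraries left, Ebf1 was higher (1.23) and Ebf2 (-1.54) and Barhl2 (-1.56) were lower than in dcKO vehicle, and against WT vehicle Ebf1 (1.88) and Ebf3 (0.87) were higher and Ebf2 (-0.80) and Barhl2 (-1.34) lower. Of the 9 cortical hem genes, 7 could be tested and 0 passed over all libraries. At an unadjusted p below 0.05, 2 were higher and 0 lower in each genotype comparison. Of all genes, 7.91% and 8.14% were so in M and 4.14% and 5.33% in dcKO vehicle. The hem genes had 0 and 2 in dcKO Wnt inhibitor against dcKO vehicle, beside 7.85% and 8% of all genes. They had 0 and 0 against WT vehicle, beside 9.53% and 10.2%. Without the doubted libraries the Wnt ligand gene Wnt2b was higher in M and dcKO vehicle (1.52 and 1.53), as was the R-spondin gene Rspo2 (1.11 and 1.06), and Rspo3 was lower (-0.80 and -0.73). Of all genes without these libraries, 5.57% were called higher and 6.88% lower in M, and 2.47% and 3.34% in dcKO vehicle. In dcKO Wnt inhibitor 0.303% were higher and 0.72% lower than in dcKO vehicle, and 2.66% and 4.72% against WT vehicle.

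The 8 genes did not vary as one group over the libraries. Over the 12 treated libraries, the 28 pairs of members had Pearson r of log2 CPM between -0.34 and 0.80, the highest for Reln with Ndnf. Over the 7 untreated libraries r lay between -0.77 and 0.91, the highest for Calb2 with Cacna2d2, and 15 of the 28 pairs were positive in both. Without the doubted libraries, over 9 and 6 libraries, r lay between -0.41 and 0.82 and between -0.81 and 0.89, with the same highest pairs. The likeness below is over all libraries. These values describe libraries that share groups, depth and tissue composition. The genes most like each member over the treated libraries, among 14511 genes ranked, also differed. For Reln they were Dcaf7 (r = 0.97, and 0.93 over the untreated libraries), Zbtb8b and Lonrf2. Trp73 had lower values, led by Hlcs (0.87, and 0.36 untreated) before Cyp2t4 and Fut4, and Lhx5 was led by Marveld1 (0.86, and -0.31 untreated) before Dmrtb1 and Tap1. Lhx1 was most like Zfp516 (0.93 and 0.73), Lbh and Fam173b. Calb2 was most like Nnmt (0.95 and 0.65), Amz1 and Cx3cl1, and Ndnf like Larp4b (0.95 and 0.83), Prkdc and Fbxl17. Nhlh2 was most like Gpr22 (0.94 and 0.89), Zbtb2 and Galnt7. Among the genes most like Cacna2d2 were Sorcs3 (0.94 and 0.95) and Camk2a (0.92 and 0.94).

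H3K27me3 was then compared at these genes. Polycomb repressive complex 2 places this mark, which at many developmental transcription factor genes covers broad domains around CpG-rich promoters. The promoters of members that bear on this are shown here from RefSeq (GRCm38.p6, 250 bases before to 50 bases after the start, 5′ to 3′ on the gene's strand), with each CG dinucleotide in capitals. Lhx1 and Reln are shown as marked promoters of the lowest and the highest expressed member, and the 2 starts of Trp73 because the mark differed between them. They lie at chr11:84525485-84525784 (minus strand), chr5:22344656-22344955 (minus strand), chr4:154139826-154140125 (minus strand, outer start) and chr4:154097124-154097423 (minus strand, inner start).
Lhx1: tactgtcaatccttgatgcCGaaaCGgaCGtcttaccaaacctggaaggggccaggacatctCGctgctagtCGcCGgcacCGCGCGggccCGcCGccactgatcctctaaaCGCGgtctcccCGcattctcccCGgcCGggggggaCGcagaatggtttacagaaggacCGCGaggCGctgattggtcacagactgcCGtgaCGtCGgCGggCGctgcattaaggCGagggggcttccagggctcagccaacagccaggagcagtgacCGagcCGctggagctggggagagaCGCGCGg
Reln: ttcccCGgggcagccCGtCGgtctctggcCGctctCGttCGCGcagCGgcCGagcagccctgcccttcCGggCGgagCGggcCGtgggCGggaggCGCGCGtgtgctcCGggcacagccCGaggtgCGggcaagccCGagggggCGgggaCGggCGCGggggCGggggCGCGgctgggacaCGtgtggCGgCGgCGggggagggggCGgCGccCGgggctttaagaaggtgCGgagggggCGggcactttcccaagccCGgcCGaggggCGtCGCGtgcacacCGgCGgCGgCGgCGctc
Trp73 outer start: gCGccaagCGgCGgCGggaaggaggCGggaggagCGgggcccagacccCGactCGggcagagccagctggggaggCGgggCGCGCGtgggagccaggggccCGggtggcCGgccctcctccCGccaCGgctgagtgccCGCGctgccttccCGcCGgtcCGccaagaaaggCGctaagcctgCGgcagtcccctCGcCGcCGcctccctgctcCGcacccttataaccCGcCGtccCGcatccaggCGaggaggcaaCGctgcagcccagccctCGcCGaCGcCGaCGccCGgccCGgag
Trp73 inner start: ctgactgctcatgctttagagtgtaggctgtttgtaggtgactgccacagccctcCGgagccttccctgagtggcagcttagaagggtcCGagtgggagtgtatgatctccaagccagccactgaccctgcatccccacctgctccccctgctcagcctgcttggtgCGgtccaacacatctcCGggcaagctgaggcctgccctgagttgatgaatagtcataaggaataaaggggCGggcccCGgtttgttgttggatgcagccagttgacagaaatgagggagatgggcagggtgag

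The windows differed in CG content. Reln held 47 CG dinucleotides and a GC content of 80.7%, and 1.44% of 32851 RefSeq promoters held as many. Cacna2d2 held 43 (2.61% of promoters held as many), the outer start of Trp73 held 39 (4.45%) and Lhx1 held 31 (10.6%), where the median promoter held 7. The inner start of Trp73 held 6 (56.4%) and Nhlh2 held 2 (85.9%). Though low in CG and not shown above, Nhlh2 had an H3K27me3 peak within 2000 bases of its start in 6 libraries. The TCF/LEF letters CTTTGAT and CTTTGTT, searched on both strands, were found in 0 of these 6 windows and in 9.33% of all promoters. Windows for Lhx5, Calb2 and Ndnf were not used here.

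The 8 H3K27me3 libraries were uneven. The authors' caller kept between 2420911 and 28335352 tags, 12.3% to 66.5% of those mapped, and listed between 6674 and 46000 peaks, and the percentage of 11400 genes with a peak ran from 31.6% in K replicate 2 to 90.8% in K replicate 4. Peak presence at a gene therefore followed the library as well as the gene. All 8 members had a peak within 2000 bases of their start in at least 4 of the 8 libraries, as did 15% of 21938 protein-coding genes. Lhx1 and Lhx5 had one in all 8 libraries (2.47% of protein-coding genes), Trp73, Ndnf and Cacna2d2 in 7, Reln and Nhlh2 in 6 and Calb2 in 4.

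The peaks were broadest at the LIM-homeodomain genes. At Lhx1 (chr11:84518284-84525535, minus strand, mm10), the peaks that held the start were 7.24 to 32.7 kb long in 6 libraries. At Lhx5 (chr5:120431699-120441223, plus strand) they were 10.6 to 25.1 kb long in 6 libraries. On average 88.9% of the 4 kb around the Lhx5 start and 79.5% of that around the Lhx1 start were covered, which placed Lhx5 and Lhx1 at the 99.97th and 99.7th percentile of protein-coding genes. Reln (chr5:21884454-22344702, minus strand) had shorter peaks over its start, 1.13 to 5.19 kb in 5 libraries, and stood at the 94.8th percentile, and Calb2 (chr8:110137502-110168210, minus strand) was lowest at the 91.0th. Bulk tissue does not tell whether the mark and the RNA of a gene come from the same cells.

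**Figure D3:**
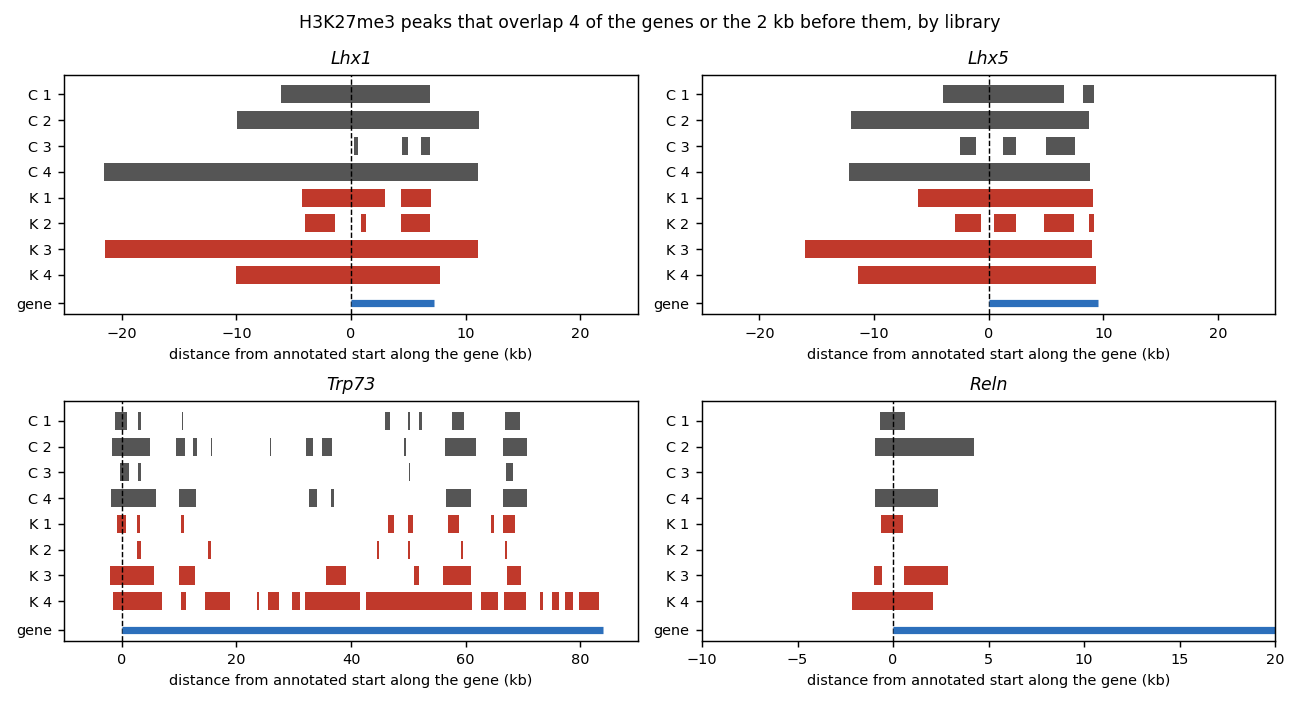
H3K27me3 peaks at Lhx1, Lhx5, Trp73 and Reln, 1 row per library (C dark grey, K red) and the gene in blue, with the horizontal axis in kb from the annotated start along the gene and a dashed line at the start. Long domains lie over Lhx1 and Lhx5, while the start of Reln is held by a peak in 5 libraries and the peaks of Trp73 lie at its outer start and further along the gene.

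Trp73 (chr4:154056253-154140208, minus strand) has an outer start, from which the full-length protein is made, and an inner start 43.0 kb downstream, from which the N-terminally shortened form is made. The outer start was covered by a peak in 7 of 8 libraries, all but K replicate 2. The inner start was covered only in K replicate 4, the library with the most peaks, and K replicate 2 had a peak within 2000 bases of it. The peaks at the outer start were 1.54 to 8.61 kb long. Counts per gene do not separate transcripts from the 2 starts. They also cannot be told apart from reads of the antisense gene Trp73os, whose exons overlap 5.06% of the exon bases of Trp73, since the library kit did not mark strand.

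Between K and C the mark was compared as the highest fold enrichment of any peak in the gene body or the 2000 bases before it, with a gene without a peak set to 1. At Lhx1 the fold enrichment was 4.92, 7.05, 5.62 and 5.95 in C and 5.64, 4.88, 6.49 and 10.9 in K. At Lhx5 it was 10.4, 6.43, 5.64 and 5.83 in C and 6.60, 5.94, 5.99 and 11.3 in K. K replicate 4, the library with the most peaks, was the highest of the 8 at Lhx1, Lhx5, Nhlh2, Ndnf and Calb2, and the groups overlapped at all 8 members (they did not at 0.368% of genes).

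Trp73 held 19.6, 6.05, 5.53 and 5.53 in C and 19.96, 5.93, 5.95 and 9.92 in K, with replicate 1 far above the others in both groups. Reln had no peak in C replicate 3 and values of 6.82, 4.56 and 4.16 in the other C libraries, against 8.95, 3.24, 4.12 and 6.29 in K. Calb2, Nhlh2 and Ndnf lacked a peak in C replicate 3 too, the C library with the fewest tags kept, and Calb2 lacked one in K replicate 1 and Nhlh2 in K replicate 2.

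**Figure D4:**
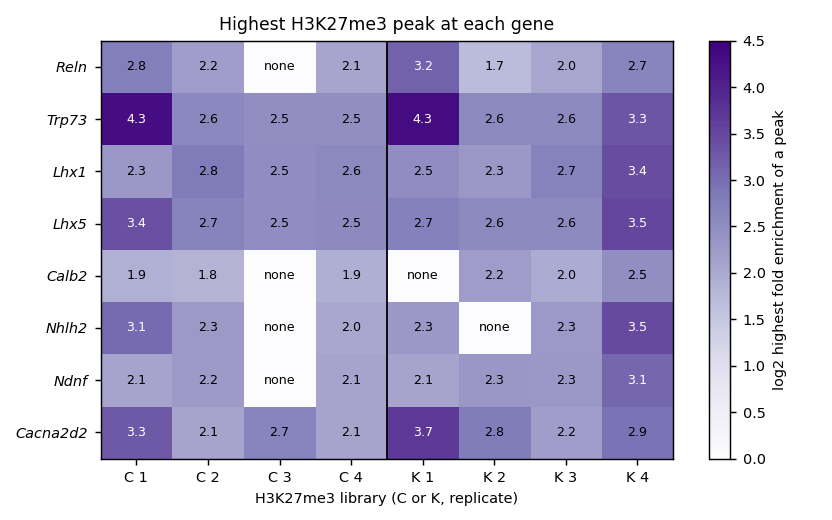
Log2 of the highest H3K27me3 fold enrichment at each Cajal-Retzius gene (rows) in the 4 C and 4 K libraries (columns, divided by a black line), shown as colour from 0 (white) upwards and printed in each cell. Cells without a peak read none, 4 of the 6 in C replicate 3; K replicate 4 and both replicates 1 hold the darkest cells.

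The log2 difference, K minus C, was positive at all 8 members, from 0.07 at Lhx5 (SE 0.50, 95% interval -0.90 to 1.04) to 0.84 at Ndnf (SE 0.82, 95% interval -0.77 to 2.45), with a median of 0.24 beside 0.16 over all 11400 genes tested. At Ndnf it fell to 0.30 without C replicate 3, where no peak was set to 1. It was 0.63 at Reln (SE 0.80), which became 0.05 without the same library and 0.97 without C replicate 1, 0.38 at Cacna2d2 (SE 0.53), 0.24 at Trp73 (SE 0.42) and 0.19 at Lhx1 (SE 0.55). None of the 8 passed in limma after Benjamini-Hochberg adjustment (adjusted p = 0.999995 for each), and 0 of 11400 genes did (0%), where an unadjusted p below 0.05 found 43 genes higher (0.377%) and 2 lower (0.0175%), none of them a member. When each library was centred on its mean over all genes, the differences at Lhx1, Lhx5 and Nhlh2 turned to -0.02, -0.14 and -0.03. The shares of all genes at an unadjusted p below 0.05 were smaller than a test with the right spread gives by chance. The library mean of the tested value ran from 0.72 in K replicate 2 to 2.22 in K replicate 4. This test could therefore hardly call any gene, and no conclusion was drawn from the lack of calls at the members. The upper end of the 95% interval exceeded a log2 difference of 1 at all 8.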

How the data were processed

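RNA-seq libraries (TruSeq RNA kit, which does not mark strand) were aligned to mm10 by the authors, who deposited whole-number counts per gene. These counts were scaled by TMM, filtered with filterByExpr and tested with edgeR 4.0.16 (quasi-likelihood, robust) in R 4.3.3, the 2 experiments separately, with Benjamini-Hochberg adjustment over all genes. In the treated experiment all 12 libraries entered 1 fit. Total counts ran from 11946658 to 28391046, and nothing states that libraries came from separate litters, so p-values measure the spread between libraries. H3K27me3 peaks were called by the authors with MACS2 per library against an input pooled per group, and the deposited peak lists give a fold enrichment (a ratio over background), a pileup (tag coverage signal) and a −log10 q-value per peak. The log2 of the highest fold enrichment per gene was tested with limma 3.58.1 (trend, robust) for genes with a peak in at least 2 of 8 libraries. Gene models were GENCODE M21 and promoter windows RefSeq, both on GRCm38. DESeq2 1.42.0, other scalings and filters, a replicate block, the sequencing lane (in the deposited names of the treated libraries) and leaving out libraries were alternatives, and those without the doubted libraries were chosen after seeing the data. The fits were also run on simulated data with 1 spread setting for all genes, no floor for missing peaks and no doubted libraries. Those runs do not show how the fits perform on these libraries.

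The members, gene lists and tests were chosen with earlier results of these data known. The rule for named genes took all 8 members in every comparison, the 3 genes most like each member over the treated libraries (1 of these is not reported here), and at most 4 genes a list past an adjusted p of 0.05. H3K4me2 was not analysed here.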

Additional observations from a re-analysis of the deposited data

Results flagged for a closer look

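Of 48 gene and group combinations with 4 libraries, 7 held a library far from the others by Dixon's criterion. For normally distributed values chance alone gives about 1 in 20. Among RNA levels, Lhx5 was low in C replicate 4 at 3.57 CPM. Nhlh2 was high in dcKO Wnt inhibitor replicate 2 at 33.2 CPM, a library whose Smarcc1 level went against its label. Cacna2d2 was low in WT vehicle replicate 3 at 55.0 CPM. Among the H3K27me3 values, Trp73 was high in C replicate 1 at a log2 fold enrichment of 4.30, and Lhx5 was high in K replicate 4 at 3.5. Calb2 and Ndnf had no peak in C replicate 3, a log2 fold enrichment of 0. This value is set where there is no peak, so the rate of 1 in 20 does not hold for such values.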

How the results depend on the processing

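The counts of all genes called, in either direction, depended on the setting. Between M and C, 1 gene was called, against 154 with no filter on low counts, 531 in DESeq2 and 0 to 1994 with 1 library left out. Between dcKO vehicle and WT vehicle, 1 gene was called, against 0 with DESeq2 size factors, with no filter, with only these groups fitted or with the sequencing lane as a term, 118 in DESeq2, 978 without the 3 doubted libraries and 0 to 562 with 1 library left out. Between dcKO Wnt inhibitor and dcKO vehicle, 9 were called, against 20 with no filter, 343 in DESeq2, 0 with the lane, 172 without the 3 and 0 to 420 with 1 library left out. Against WT vehicle the inhibitor group had 16, against 58, 732, 0 with the lane, 8 with only these groups, 1241 without the 3 and 0 to 1453 with 1 left out. For H3K27me3, 0 genes were called, against 12 in the libraries with over 30% of tags kept and 0 to 57 with 1 left out.

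The replicate numbers did not pair the libraries throughout: same-numbered libraries had a mean correlation of deviations of -0.14 between M and C, 0.10, 0.07 and 0.11 in the treated comparisons and 0.01 in H3K27me3. Single pairs ran from -0.01 to 0.38 between dcKO vehicle and WT vehicle. They ran from -0.18 to 0.40 between dcKO Wnt inhibitor and WT vehicle and from -0.42 to 0.46 in H3K27me3. Replicate 1 gave the highest value in each of these. With the replicate block, 0 genes were called between M and C, 5 between dcKO vehicle and WT vehicle, 7 between dcKO Wnt inhibitor and dcKO vehicle, 189 against WT vehicle and 1 for H3K27me3, and Cacna2d2 turned to -0.0078 between M and C.

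Log2 changes of the members turned sign in these settings. Without the 3 libraries Reln was 0.089 between dcKO vehicle and WT vehicle, and Lhx5 was -0.11 and -0.0090 in the inhibitor comparisons, and with the lane Cacna2d2 was -0.0070 between dcKO vehicle and WT vehicle and Trp73 0.021 between dcKO Wnt inhibitor and WT vehicle. With 1 library left out, the ranges crossing 0 between M and C were -0.22 to 0.081 for Reln, -0.037 to 0.22 for Trp73, -0.041 to 0.17 for Calb2 and -0.14 to 0.19 for Cacna2d2, and between dcKO vehicle and WT vehicle -0.086 to 0.090 for Reln, -0.0098 to 0.11 for Lhx5 and -0.15 to 0.14 for Cacna2d2. For the inhibitor against vehicle they were -0.018 to 0.12 for Lhx5 and -0.20 to 0.073 for Nhlh2, and against WT vehicle -0.058 to 0.040 for Trp73, -0.19 to 0.11 for Lhx1 and -0.34 to 0.0065 for Cacna2d2. For H3K27me3 the difference turned with the percentage of the window covered, in percentage points and not log2 (Reln -0.052, Ndnf -0.55, Cacna2d2 -0.20). The log2 difference turned with the start window (Trp73 -0.41, Cacna2d2 -0.34) and with the pileup (Trp73 -0.00090, Lhx1 -0.037, Lhx5 -0.17). It also turned when centred on the library mean (Lhx1 -0.019, Lhx5 -0.14, Nhlh2 -0.034) and in the libraries with under 30% of tags kept (Lhx1 -0.0038, Lhx5 -0.29, Nhlh2 -0.38). With 1 library left out it ran from -0.14 to 0.68 at Trp73, -0.052 to 0.33 at Lhx1, -0.15 to 0.27 at Lhx5, -0.23 to 0.80 at Calb2 and -0.44 to 0.84 at Nhlh2. The cause of these changes was not tested.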
